A study of Mus musculus with 20 samples.

Results

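The cytosolic ribosomal protein genes, whose products make up the protein part of the ribosome of the cytoplasm, were followed in dendritic cells grown from mouse bone marrow (BMDCs) and given an inhibitor of BET bromodomain proteins, IgG immune complexes, or both. The genes were taken by symbol, as the rows of the count table that begin with Rpl or Rps followed by a number, with Rplp0, Rplp1, Rplp2 and Rpsa. Of 105 symbols of this form, 10 rows of S6 kinases and 7 rows with a pseudogene symbol (-ps) were left out. This left 88 of the 24421 rows of the table, 53 for the large (60S) and 35 for the small (40S) subunit. The rule also took in rows that are no standard ribosomal protein, which are described below with the other paralogues: Rps19bp1, Rpl7l1, Rpl3l, Rpl10l, Rpl39l, Rps4l, Rps27rt and Rpl37rt. Of these, Rps4l and Rpl37rt are annotated as transcribed processed pseudogenes in GENCODE M21, and were kept. No measured value was used to choose the rows.

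Marrow of 5 wild-type C57BL/6 mice (A to E) was cultured for 8 days with GM-CSF at 40 ng/mL, a culture that yields dendritic cells together with macrophage-like cells. Cells of each mouse were treated in 4 ways for 4 hours, which gave 20 libraries. DMSO was combined with ovalbumin (DMSO Ova) or with ovalbumin bound by IgG into immune complexes (DMSO IC), and I-BET151 at 3.3 µM likewise with ovalbumin (iBET Ova) or with immune complexes (iBET IC). I-BET151 keeps BET proteins, which help recruit the elongation machinery to acetylated chromatin, from binding acetylated histones, and immune complexes activate the cells through Fcγ receptors. A DMSO content (5%) is labelled for the groups without inhibitor alone, so a difference in solvent cannot be told apart from that of iBET. The labels describe inhibitor and stimulus as given together, whereas the methods place the inhibitor shortly before the stimulus.

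Each cytosolic ribosome carries a single copy of most ribosomal proteins, and cells make them in step from separate genes scattered over the genome. Their mRNAs begin with a C followed by a run of pyrimidines, the 5′ terminal oligopyrimidine (TOP) tract, through which mTOR and the RNA-binding protein LARP1 set how much of them is translated and how stable they are. The mRNAs are among the most abundant in growing cells, and in immune cells their translation rises with activation. The values below are levels of RNA and say nothing of the translation of these mRNAs. The starts of 6 of the genes described below are shown, chosen because their annotated start lies beside such a run.
Rps2 (chr17:24720053-24720082, plus strand): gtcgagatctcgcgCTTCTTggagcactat
Rpl7a (chr2:26910797-26910826, plus strand): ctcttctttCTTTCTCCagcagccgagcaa
Rplp2 (chr7:141447641-141447670, plus strand): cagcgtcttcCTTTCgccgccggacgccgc
Rps10 (chr17:27635225-27635254, minus strand): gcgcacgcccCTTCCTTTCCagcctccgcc
Rpl31 (chr1:39367841-39367870, plus strand): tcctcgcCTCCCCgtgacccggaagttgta
Rps27l (chr9:66946076-66946105, plus strand): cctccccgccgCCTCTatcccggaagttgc
Each run of 30 bases is the reference sequence of RefSeq (GRCm38.p6), read 5′ to 3′ on the strand of the gene, and covers the 10 bases before and the 20 bases from the annotated start. The capitals mark a run of at least 5 pyrimidines, read from the nearest C that opens such a run within 5 bases of that start. Pyrimidines before that C are left in lower case, as in Rpl7a, Rplp2 and Rps10, so the whole run can begin earlier. Such a run was found in 3270 of the 17224 genes with a start in the reference (19.0%), and exactly at the annotated start in 396 of them (2.30%). Annotated starts matched 67 of the 88 ribosomal protein rows, too few (under 80%) for a share over the rows, so the comparison with all genes is void. Of those 67, 29 held such a run and 13 held it exactly at the start, while Rpl41, Rplp0, Rpl7l1, Rpl36a and Rpl3l had a start without one. An annotated start can lie off the base at which most mRNAs begin, so a run beside it is a description and no measured TOP tract.

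Total counts per library ranged from 16447491 to 29245150, and all tests used the deposited counts in 1 fit of the 20 libraries (quasi-likelihood test of edgeR, p adjusted over 12465 genes by the Benjamini-Hochberg method, threshold 0.05). Values are given as CPM, the usual counts scaled to a common library total, with TMM factors, which hold the bulk of genes level between libraries. These factors were lowest in the iBET IC group (0.924 to 0.963) and highest in the DMSO Ova group (1.03 to 1.08), so that every difference below is relative to the other genes and not to the number of cells. The ribosomal RNA gene Rn45s took 2.69% to 8.61% of the counts. Of the 8 dendritic cell markers listed, 8 were over 1 CPM, with sums of 4605 to 7524 CPM in DMSO Ova, 5399 to 8928 in DMSO IC, 4802 to 7792 in iBET Ova and 5761 to 9844 in iBET IC. The 6 macrophage markers summed to 1157 to 1739 CPM in DMSO Ova, 1208 to 1676 in DMSO IC, 826 to 1173 in iBET Ova and 874 to 1295 in iBET IC. Markers of neutrophils summed to 11.8 to 48.7 CPM, of B cells to at most 0.726, of T cells to at most 0.163, of erythroid cells to at most 15.6 and of basophils or mast cells to at most 2.98, with Ms4a1, Cd3e, Cd3d and Cd3g at 0 in most libraries. In bulk RNA, fewer cells of a type and less RNA per cell cannot be told apart, and the part of cell makeup in the results below was not tested. The first principal component of the deviations from the group means held 47.5% of their variance and set mice A and B (scores from −32.2 to −23.9) apart from mice C, D and E (14.5 to 23.2), and nothing in the labels names what these mice share. Results are therefore given for the 5 mice and for each of these sets of mice.

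Together the 88 rows took 4.46% to 5.67% of all counts of a library. Their share in the DMSO Ova libraries of mice A to E was 4.75%, 4.70%, 4.46%, 4.72% and 4.70%, and in the DMSO IC libraries 4.73%, 4.64%, 5.17%, 5.21% and 4.99%. In the iBET Ova libraries it was 4.90%, 4.59%, 4.86%, 5.06% and 5.31%, and in the iBET IC libraries 5.42%, 5.18%, 5.25%, 5.67% and 4.98%. The share was thus lowest with DMSO and Ova, at 4.66% ± 0.118 (SD, n = 5), nearly the same with either treatment alone (4.95% ± 0.256 with IC and 4.94% ± 0.265 with iBET), and highest with both (5.30% ± 0.258), and all groups but DMSO Ova and iBET IC overlapped. With TMM scaling the sums were 44163 ± 1778 CPM for DMSO Ova, 50462 ± 1885 for DMSO IC, 48514 ± 3005 for iBET Ova and 55996 ± 2933 for iBET IC. The scaled sum was higher with iBET in 4 of 5 mice with Ova and in 5 of 5 with IC, and higher with IC in 5 of 5 mice with DMSO and in 5 of 5 with iBET, where mouse E differed by 0.0018 on the log2 scale. On the unscaled share these numbers were 4, 4, 3 and 4 of 5 mice. No test was made of a sum over the rows.

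**Figure D1:**
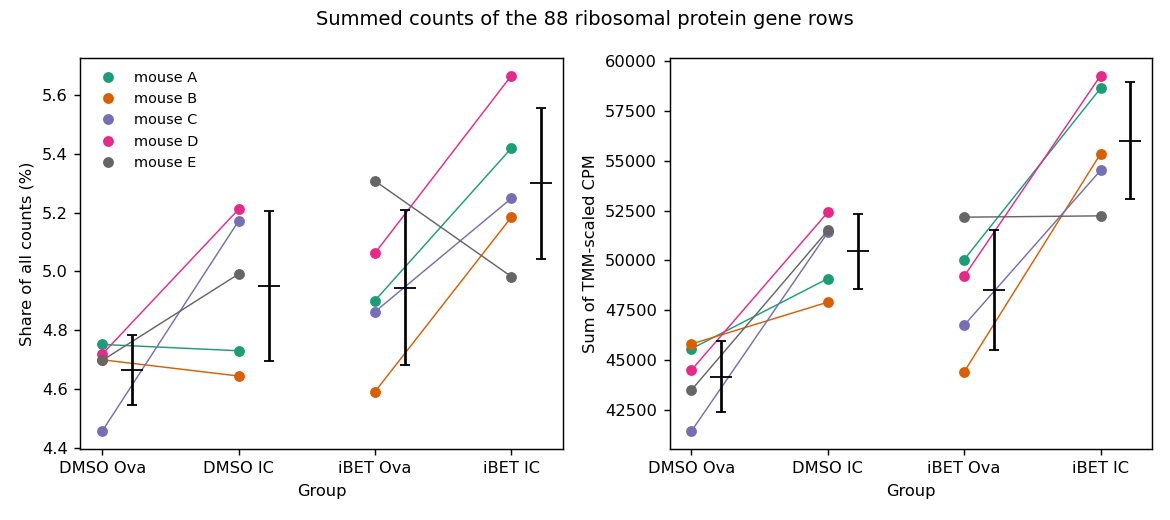
Summed counts of the 88 ribosomal protein rows in each library, as a share of all counts in percent (left) and as the sum of TMM-scaled CPM (right), with 1 coloured point per mouse, lines joining the Ova and IC libraries of a mouse, and group mean ± SD in black (n = 5). The DMSO Ova libraries range from 4.46% to 4.75% and the iBET IC libraries from 4.98% to 5.67%, with the other groups between and overlapping both.

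Levels differed widely between the genes. Per kilobase of annotated exon, which is the scale on which genes are compared here, the median row stood at 521 CPM per kb, and the range from the 10th to the 90th percentile ran from 95.6 to 1049. The highest were Rplp1 (1833 CPM per kb), Rps29 (1611), Rplp0 (1547), Rps18 (1426) and Rps27rt (1275). Rplp0 and Rplp1 belong to the stalk that recruits elongation factors, whereas Rps29 and Rps18 are proteins of the small subunit. The lowest were Rpl10l, with no count in any library, Rpl39l (0.312 CPM per kb) and Rpl3l (0.762), all of them paralogues known from other tissues: Rpl10l and Rpl39l from testis, Rpl3l from striated muscle. The length is summed over the exons of all transcripts tagged basic in GENCODE M21. It is long for genes with rare long transcripts among these, which lowers their level on this scale. Of the 88 rows, 79 stood above a mean of 100 CPM and 84 had a mean of at least 100 counts. The filter on low counts kept 86, 51 of the large and 35 of the small subunit, and left out Rpl10l and Rpl39l.

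Several rows can share reads, since this family has many near-identical copies. Rps27, a zinc finger protein of the small subunit on chromosome 3, has a retrotransposed copy on chromosome 9, Rps27rt, whose coding sequence of 252 bases differs from it at 0 positions. In every library the counts of these rows lay within 37 of each other (99.6% to 99.9%), closer than separate sets of reads would be, with a chi-square of 0.742 over 20 libraries. They thus differed by less than the sampling noise of separate reads, and count as 2 rows wherever they pass a test below, as they did for IC with a replicate block. Rpl34 and its pseudogene row Rpl34-ps1 were as close (99.4% to 99.8%), although their coding sequences differ at 2 positions. Counts of Rpl37rt, which differs from Rpl37 at 1 coding position (G249A, counted from the first base of the start codon, Rpl37 first), stood at 16.1% to 21.9% of those of Rpl37. Over all rows, a median of 34.5% of the 100-base words of the transcript were shared with transcripts of other genes, and 32 of the 88 shared over 50%. How reads that fit several genes were counted is not given in the sources used here, so the level of a row with copies is uncertain.

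The pair Rps27 and Rps27l shows the opposite case, a paralogue distinct enough to be counted by itself. Rps27l, a target gene of p53, encodes a protein much like Rps27, but its coding sequence differs at 60 of 252 bases (76.2% identity). Both coding sequences, from the transcripts of GENCODE M21 (GRCm38), are given 5′ to 3′ from the start codon without the stop codon. Capitals mark the positions at which they differ, which are spread along the whole length.
Rps27 (chr3:90212522-90213651, minus strand): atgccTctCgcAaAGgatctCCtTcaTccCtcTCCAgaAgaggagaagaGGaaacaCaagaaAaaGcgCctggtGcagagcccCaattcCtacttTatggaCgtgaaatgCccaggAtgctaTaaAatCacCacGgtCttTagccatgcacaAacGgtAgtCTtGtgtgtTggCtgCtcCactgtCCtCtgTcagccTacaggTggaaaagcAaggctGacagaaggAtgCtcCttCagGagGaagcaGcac
Rps27l (chr9:66946086-66949516, plus strand): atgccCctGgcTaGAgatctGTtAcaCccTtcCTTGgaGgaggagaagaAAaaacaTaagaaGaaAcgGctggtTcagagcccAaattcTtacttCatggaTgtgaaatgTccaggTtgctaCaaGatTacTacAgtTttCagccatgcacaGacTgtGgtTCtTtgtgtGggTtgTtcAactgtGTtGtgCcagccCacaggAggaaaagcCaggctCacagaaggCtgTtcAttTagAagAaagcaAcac
Rpl37 and Rpl37rt, in contrast, are shown over the 60 bases around their single difference (positions 219 to 278), marked in capitals.
Rpl37 (chr15:5116645-5119140, plus strand): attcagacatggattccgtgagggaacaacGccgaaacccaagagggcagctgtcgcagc
Rpl37rt (chr5:115102923-115110268, minus strand): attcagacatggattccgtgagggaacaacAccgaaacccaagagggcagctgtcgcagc

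To see what BET inhibition did to these genes, iBET was compared with DMSO with either stimulus. With Ova, 23 of the 86 rows rose and 2 fell, and with IC likewise 23 rose and 2 fell. These shares (26.7% higher in each) stood beside 27.7% of all genes tested that rose and 28.9% that fell with Ova, and 27.1% and 29.0% with IC. The share of ribosomal protein genes that rose was thus near the background and is no result about them, whereas the share that fell, 2.33% in each, was far under it. The changes were small and mostly of 1 sign: the rows had a median log2 fold change of 0.11 (1.08-fold) in the Ova and of 0.13 (1.09-fold) in the IC groups, against −0.003 and −0.005 over all genes tested, with 78 and 81 of 86 rows above 0. The subunits gave similar counts, with 14 of 51 rows of the large and 9 of 35 of the small subunit rising in either comparison. With the mouse as a replicate block 34 rose and 2 fell with Ova (background 33.5% and 35.2%), and 42 rose and 2 fell with IC (32.6% and 35.4%). These comparisons share no library but come from the same mice.

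The largest rise with iBET was that of Rps2, a protein of the small subunit that sits at the mRNA entry channel (chr17:24718116-24721929 on GRCm38 by GENCODE M21, as for all positions below). Rps2 stood at 949.5, 864, 749, 799.9 and 794 CPM in the DMSO Ova libraries of mice A to E, and at 973, 922, 957, 960 and 1022 CPM in their DMSO IC libraries. Rps2 values with iBET were 1289.8, 1004, 1126, 1157 and 1211 CPM in the Ova libraries and 1409, 1396, 1344, 1365 and 1197 CPM in the IC libraries. Every iBET library lay above every DMSO library with the same stimulus. The rise was 1.39-fold with Ova (log2 fold change 0.48 ± 0.07, SE; edgeR adjusted p = 1.68e-05) and 1.39-fold with IC (0.47 ± 0.07, adjusted p = 1.86e-05), each in 5 of 5 mice. IC raised it too with DMSO (0.22 ± 0.07, edgeR adjusted p = 0.0424), while with iBET the same comparison gave 0.21 ± 0.07 (adjusted p = 0.066, blocked by mouse 0.0145).

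Rpl7a, a protein of the large subunit whose introns hold small nucleolar RNA genes, came next (chr2:26910764-26913318). Rpl7a stood at 285, 268, 244, 272 and 258 CPM in the DMSO Ova libraries of mice A to E, and at 279.8, 281, 308, 324 and 321 CPM in their DMSO IC libraries. Rpl7a values with iBET were 347, 295, 332, 355 and 377 CPM in the Ova libraries and 402, 389.5, 394, 422 and 385 CPM in the IC libraries. The iBET and DMSO libraries did not overlap with either stimulus. iBET raised it by 0.36 ± 0.07 on the log2 scale beside Ova (edgeR adjusted p = 1.12e-04) and by 0.40 ± 0.07 with IC (adjusted p = 4.12e-05), in 5 of 5 mice each. IC also raised it, by 0.19 ± 0.07 on the log2 scale with DMSO in 4 of 5 mice (adjusted p = 0.0496) and by 0.22 ± 0.07 with iBET in 5 of 5 (adjusted p = 0.0323).

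Rpl41, which encodes the shortest ribosomal protein, a basic peptide that bridges the subunits, rose under both treatments (chr10:128548114-128549305). Rpl41 stood at 751, 743, 617, 711 and 622 CPM in the DMSO Ova libraries of mice A to E, and at 830.4, 787, 873, 910 and 876 CPM in their DMSO IC libraries. Rpl41 values with iBET were 922, 667, 825, 906 and 925 CPM in the Ova libraries and 1069, 944, 1018, 1062 and 953 CPM in the IC libraries. The iBET Ova library of mouse B, at 667 CPM, lay within the range of the DMSO Ova group, whereas with IC the iBET libraries all lay above the DMSO libraries. iBET raised it by 0.30 ± 0.09 with Ova in 4 of 5 mice (log2; edgeR adjusted p = 0.00536) and by 0.24 ± 0.09 with IC in 5 of 5 (adjusted p = 0.0228). IC raised it by 0.31 ± 0.09 with DMSO in 5 of 5 mice (adjusted p = 0.0143). With iBET the IC difference was 0.25 ± 0.09, also in 5 of 5 mice (adjusted p = 0.0635, blocked 0.0142). Rps20, a protein of the head of the small subunit (chr4:3831334-3835665), rose with iBET by 0.24 ± 0.06 with Ova (adjusted p = 0.00313) and by 0.30 ± 0.06 with IC (adjusted p = 6.49e-04). Its mean was 555 ± 23.8 CPM in DMSO IC and 681 ± 48.8 CPM in iBET IC (SD, n = 5), with no overlap.

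**Figure D2:**
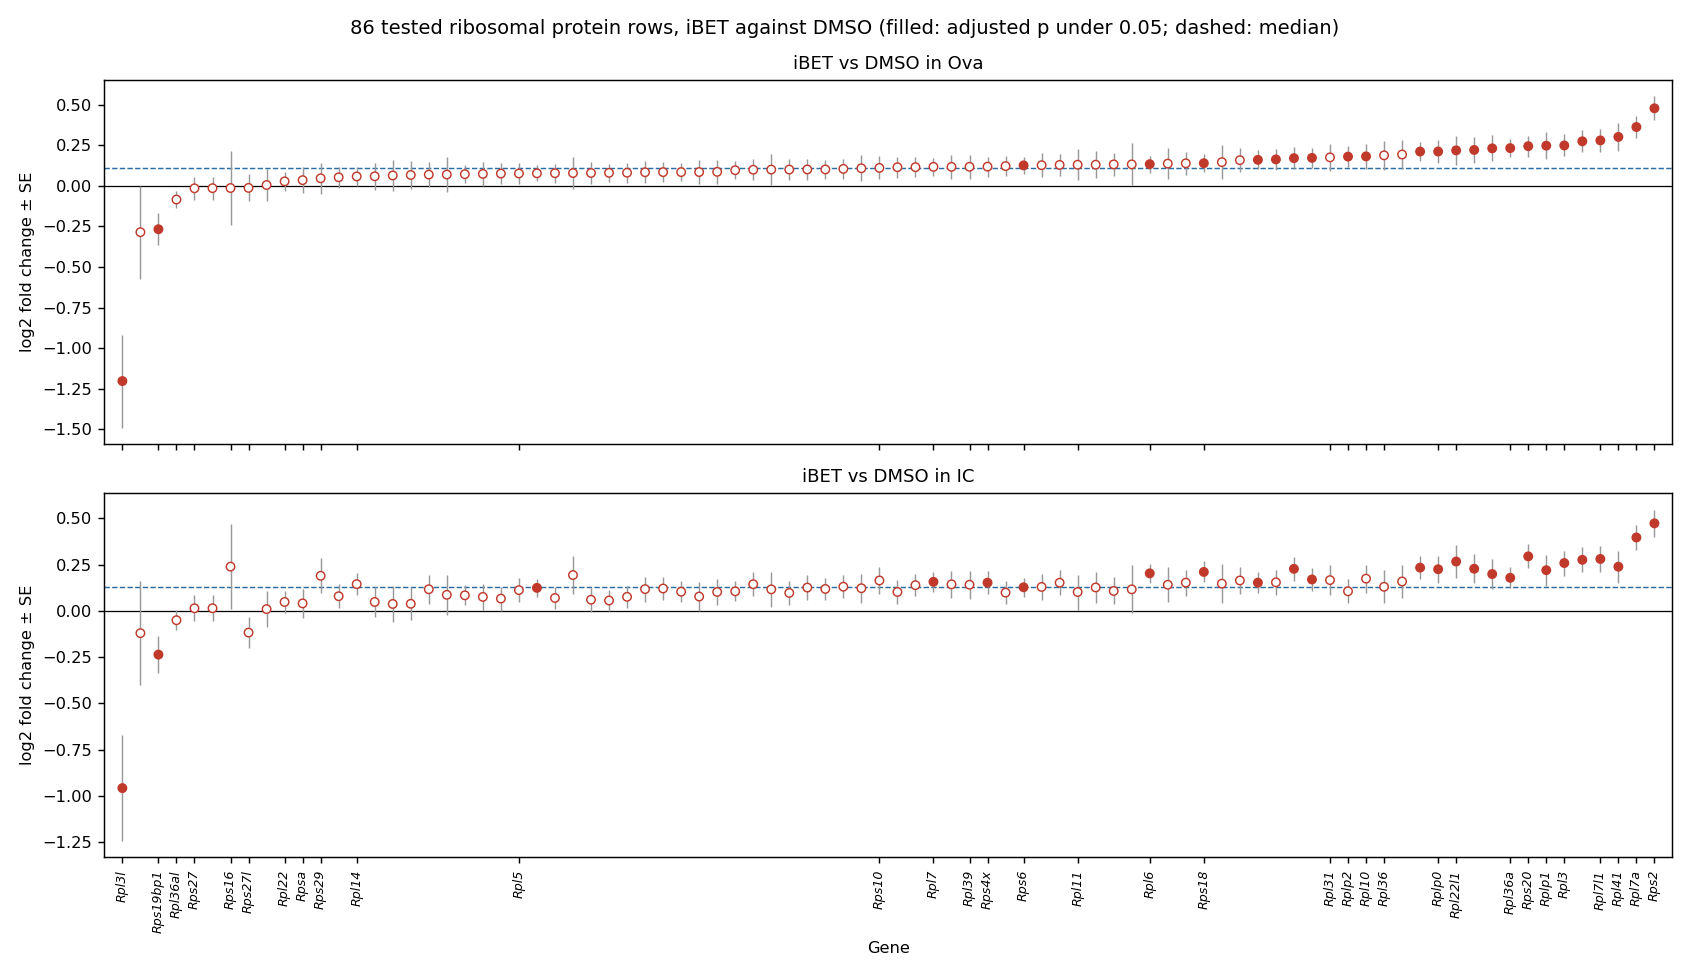
Log2 fold change ± SE of each of the 86 tested rows, iBET against DMSO with Ova (top) and with IC (bottom), ordered by the value with Ova, with some rows labelled, filled points for an adjusted p under 0.05 and a dashed line at the median. Rps2 and Rpl7a stand highest in both panels and Rpl3l lowest, and the dashed medians lie at 0.11 and 0.13.

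The stalk proteins Rplp0, Rplp1 and Rplp2, which form the arm of the large subunit that receives elongation factors, rose together with iBET and Ova. Rplp0 stood at 1994, 2020.1, 1667, 1708 and 1666 CPM in the DMSO Ova libraries of mice A to E, and at 2155, 2102, 2005, 2010 and 2088 CPM in their DMSO IC libraries. Rplp0 values with iBET were 2318, 2005, 1971, 1994 and 2198 CPM in the Ova libraries and 2666, 2524, 2290.2, 2400.3 and 2231 CPM in the IC libraries. In DMSO Ova, mice A and B lay above the other mice. With Ova the log2 fold changes with iBET were 0.21 ± 0.07 for Rplp0 (edgeR adjusted p = 0.019), 0.25 ± 0.08 for Rplp1 (adjusted p = 0.0161) and 0.18 ± 0.06 for Rplp2 (adjusted p = 0.0225), each in 4 of 5 mice. With IC, Rplp0 (0.23 ± 0.07, adjusted p = 0.0132) and Rplp1 (0.22 ± 0.08, adjusted p = 0.0303) rose, while Rplp2 stood at 0.11 ± 0.06 (adjusted p = 0.169). IC raised Rplp1 (0.24 ± 0.08, adjusted p = 0.048) and Rplp2 (0.24 ± 0.06, adjusted p = 0.0132) in DMSO. For Rplp0 in DMSO, and for all of them in iBET, IC gave log2 differences of 0.16 to 0.21 that passed only with the mouse as a replicate block (adjusted p from 0.00511 to 0.0448).

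Proteins with known regulatory roles had small differences. Rps6, the target of the S6 kinases, rose in all 4 comparisons by small amounts, by 0.13 with iBET and Ova and 0.13 with iBET and IC, and by 0.16 and 0.16 with IC (log2; edgeR adjusted p = 0.0413, 0.0388, 0.0299 and 0.041). Rpl5 and Rpl11, which with 5S rRNA bind Mdm2 when ribosome assembly fails, did not pass the test in any of them. Their log2 fold changes with iBET were 0.08 and 0.11 for Rpl5 and 0.13 and 0.10 for Rpl11. With IC in DMSO they were 0.14 (adjusted p = 0.139, blocked 0.0157) and 0.26 (adjusted p = 0.0559, blocked 0.00331). Rpsa, also known as a laminin receptor precursor, stood at 0.04 and 0.04 with iBET, and at 0.20 and 0.20 with IC (adjusted p = 0.0925 and 0.111, blocked 0.0057 and 0.00519).

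The rows that fell with iBET were not core ribosomal proteins. Rpl3l, the muscle paralogue of Rpl3, was barely detected in these cells, with a mean of 27 counts a library. Rpl3l stood at 1.21, 1.66, 1.65, 2.49 and 1.69 CPM in the DMSO Ova libraries of mice A to E, and at 1.11, 1.13, 2.01, 1.87 and 1.66 CPM in their DMSO IC libraries. Rpl3l values with iBET were 0.929, 0.705, 0.933, 0.675 and 0.544 CPM in the Ova libraries and 0.481, 0.644, 1.50, 0.572 and 0.890 CPM in the IC libraries. With Ova the groups did not overlap. Its log2 fold change was −1.20 ± 0.29 beside Ova (edgeR adjusted p = 0.00134) and −0.96 ± 0.29 with IC (adjusted p = 0.00758), in 5 of 5 mice each. Its gene (chr17:24727820-24736143) lies 5890 bases beyond the end of Rps2, the row that rose most. Rps19bp1, whose product binds Rps19 and the deacetylase SIRT1, fell from 14.9 ± 1.48 to 12.4 ± 1.61 CPM with Ova (−0.27 ± 0.10, adjusted p = 0.0281), and from 15.9 ± 1.36 to 13.5 ± 1.59 CPM with IC (−0.24 ± 0.10, adjusted p = 0.0499), with overlapping groups in both.

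Paralogue pairs did not always move in step. Rpl36al, a paralogue of the large subunit gene Rpl36a, stood at 20.7% ± 0.654 (SD, n = 5) of the level of Rpl36a per kb in DMSO Ova and 20.0% ± 0.984 in DMSO IC. With iBET this ratio was lower, at 16.6% ± 0.308 with Ova and 17.0% ± 0.482 with IC, and the highest iBET library (17.6%) lay below the lowest DMSO library (19.2%). Rpl36a rose with iBET (0.23 ± 0.06 beside Ova, edgeR adjusted p = 0.0016, and 0.18 ± 0.06 with IC, adjusted p = 0.0109), while Rpl36al stood at −0.08 and −0.05 (adjusted p = 0.194 and 0.45). The ratio itself was not tested. Rpl22l1, the paralogue of Rpl22, was nearly as high as it, at 77.3% ± 7.73, 72.6% ± 5.72, 88.1% ± 4.59 and 84.4% ± 9.02 of its level per kb in the order DMSO with Ova, DMSO with IC, iBET with Ova and iBET with IC. Rpl22l1 rose with iBET in 5 of 5 mice with either stimulus (0.22 ± 0.09 and 0.27 ± 0.09, adjusted p = 0.0472 and 0.0173), whereas Rpl22 stood at 0.03 and 0.05.

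Rpl7l1, a paralogue of Rpl7 found in precursors of the large subunit, was at 4.39% of Rpl7 per kb. Rpl7l1 stood at 98.5, 91.4, 81.8, 81.5 and 86.7 CPM in the DMSO Ova libraries of mice A to E, and at 87.4, 92.7, 88.0, 87.9 and 89.0 CPM in their DMSO IC libraries. Rpl7l1 values with iBET were 115, 109, 105, 96.3 and 109 CPM in the Ova libraries and 117, 120.1, 98.4, 109 and 95.6 CPM in the IC libraries. It rose with iBET by 0.28 ± 0.07 with Ova and 0.28 ± 0.07 with IC (log2; edgeR adjusted p = 0.002 and 0.00198) in 5 of 5 mice each, and the groups with IC did not overlap. The comparison of IC with Ova gave log2 differences of 0.02 in DMSO and 0.02 in iBET (adjusted p = 0.905 and 0.909). Rpl7 itself had log2 fold changes of 0.12 with iBET and Ova (adjusted p = 0.0707, blocked 0.0228) and 0.16 with iBET and IC (adjusted p = 0.0177). Rpl3 rose with iBET by 0.25 ± 0.07 and 0.26 ± 0.07 (adjusted p = 0.0039 and 0.00293), in the direction opposite to its paralogue Rpl3l. Rps4l was at 0.330% of Rps4x per kb, Rpl39l at 0.0471% of Rpl39, and Rpl10 ran at 990 CPM per kb with Rpl10l at 0.

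Immune complexes gave a different balance of calls. With DMSO, 37 of the 86 rows (43.0%) rose with IC and 0 fell, against 9.59% of all genes tested that rose and 10.7% that fell. With iBET, 34 (39.5%) rose and 0 fell, against 5.19% and 6.63%. At an unadjusted p under 0.05, 72 and 76 rows differed. The share of all genes at that unadjusted threshold is not given here, so the 72 and 76 have no background. The same holds for every later count at an unadjusted p. The median log2 fold change was 0.20 with DMSO and 0.21 with iBET (against −0.024 and −0.014 over all genes tested), and 85 and 86 of the 86 rows lay above 0. By subunit, 23 of 51 rows of the large and 14 of 35 of the small subunit rose with DMSO, and 21 and 13 with iBET. With the mouse as a replicate block 74 rose with DMSO and 77 with iBET, against 18.3% and 14.2% of all genes, and 0 fell (background 19.8% and 14.7%). The DMSO Ova and DMSO IC libraries, and likewise the iBET libraries, also enter the iBET comparisons, so these counts are not separate evidence.

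The rise with IC is a rise relative to other genes. With library size as the only scaling the median was 0.088 with DMSO and 0.104 with iBET, and 0 rows were called in either comparison by edgeR (6 and 12 at an unadjusted p under 0.05), while 4.69% and 2.51% of all genes were called higher and 20.8% and 16.3% lower. On this scale the median of all genes stood at −0.131 and −0.121. The distance between the median ribosomal protein row and the median gene was the same under both scalings (0.219 with DMSO and 0.225 with iBET). Scaling moves all genes of a library nearly alike, so this distance could hardly differ and is no further evidence of a rise. DESeq2's Wald test called 61 and 52 rows, against 22.8% and 14.6% of all genes (both directions).

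**Figure D3:**
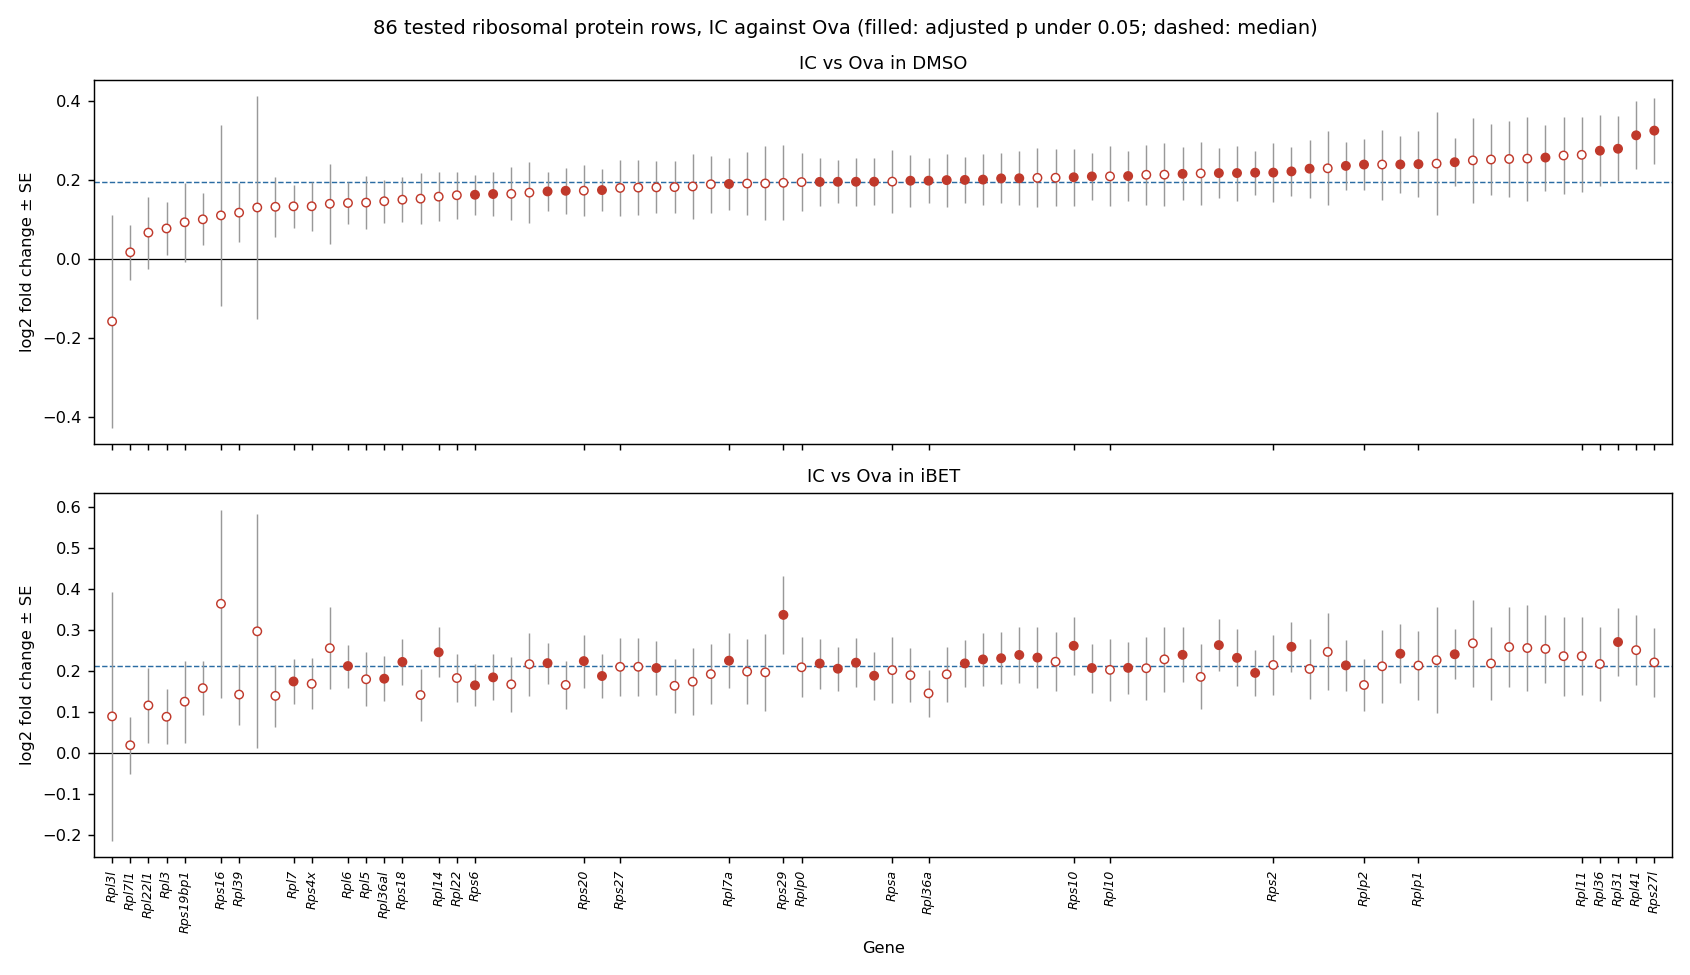
Log2 fold change ± SE of each of the 86 tested rows, IC against Ova with DMSO (top) and with iBET (bottom), ordered by the value with DMSO, with some rows labelled, filled points for an adjusted p under 0.05 and a dashed line at the median. Nearly all points lie above 0 in both panels, with Rps16 carrying the widest error bars among the core proteins.

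Of the rows called, Rps27l had the largest rise with IC in DMSO (chr9:66946086-66949516). Rps27l stood at 90.3, 77.5, 73.2, 84.2 and 86.0 CPM in the DMSO Ova libraries of mice A to E, and at 91.7, 90.3, 112, 118 and 103 CPM in their DMSO IC libraries. Rps27l values with iBET were 83.6, 74.1, 75.7, 83.5 and 90.7 CPM in the Ova libraries and 95.7, 89.1, 90.6, 108 and 91.4 CPM in the IC libraries. In DMSO the IC libraries all lay above the Ova libraries, but the nearest of them, mouse A with Ova and mouse B with IC, both stood at 90.3 CPM. The log2 fold change was 0.32 ± 0.08 in DMSO (edgeR adjusted p = 0.01) and 0.22 ± 0.08 in iBET (adjusted p = 0.0937, blocked 0.0197), higher in 5 of 5 mice in each, whereas its partner Rps27 stood at 0.18 and 0.21 (adjusted p = 0.0773 and 0.0581, blocked 0.0324 and 0.0175). iBET left Rps27l at −0.01 with Ova and −0.12 with IC (adjusted p = 0.907 and 0.244).

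Rpl41, described above, and Rpl31 and Rpl36, all of the large subunit, followed. Rpl31 stood at 491, 481, 396, 437 and 389.6 CPM in the DMSO Ova libraries of mice A to E, and at 509, 519, 536, 543 and 554 CPM in their DMSO IC libraries. Rpl31 values with iBET were 535, 409, 478, 500.2 and 557 CPM in the Ova libraries and 665, 579, 584, 605 and 555 CPM in the IC libraries. Rpl31 (chr1:39367842-39371911) rose with IC by 0.28 ± 0.08 in DMSO and 0.27 ± 0.08 in iBET (log2; edgeR adjusted p = 0.0218 and 0.0378), and in DMSO the groups did not overlap. Rpl36 went from 259.9 ± 19.9 to 314 ± 24.6 CPM in DMSO (0.27 ± 0.09, adjusted p = 0.0367), and from 296 ± 45.8 to 344 ± 18.8 CPM in iBET (0.22 ± 0.09, adjusted p = 0.125, blocked 0.0492).

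Among the largest rises with IC in iBET were those of Rps29, Rpl31 and Rps10, of which all but Rpl31 belong to the small subunit. Rps10 stood at 367, 367, 354, 359 and 338 CPM in the DMSO Ova libraries of mice A to E, and at 403, 375, 412, 438 and 433 CPM in their DMSO IC libraries. Rps10 values with iBET were 384, 317, 373, 409 and 445 CPM in the Ova libraries and 473, 455, 451, 485 and 446 CPM in the IC libraries. Rps10 rose by 0.26 ± 0.07 in iBET and 0.21 ± 0.07 in DMSO (log2; edgeR adjusted p = 0.0222 and 0.0468), in 5 of 5 mice and without overlap in both. Rps29 rose from 579.5 ± 86.5 to 731 ± 38.3 CPM in iBET (0.34 ± 0.09, adjusted p = 0.0247), while in DMSO its difference was 0.19 ± 0.09 (adjusted p = 0.162).

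**Figure D4:**
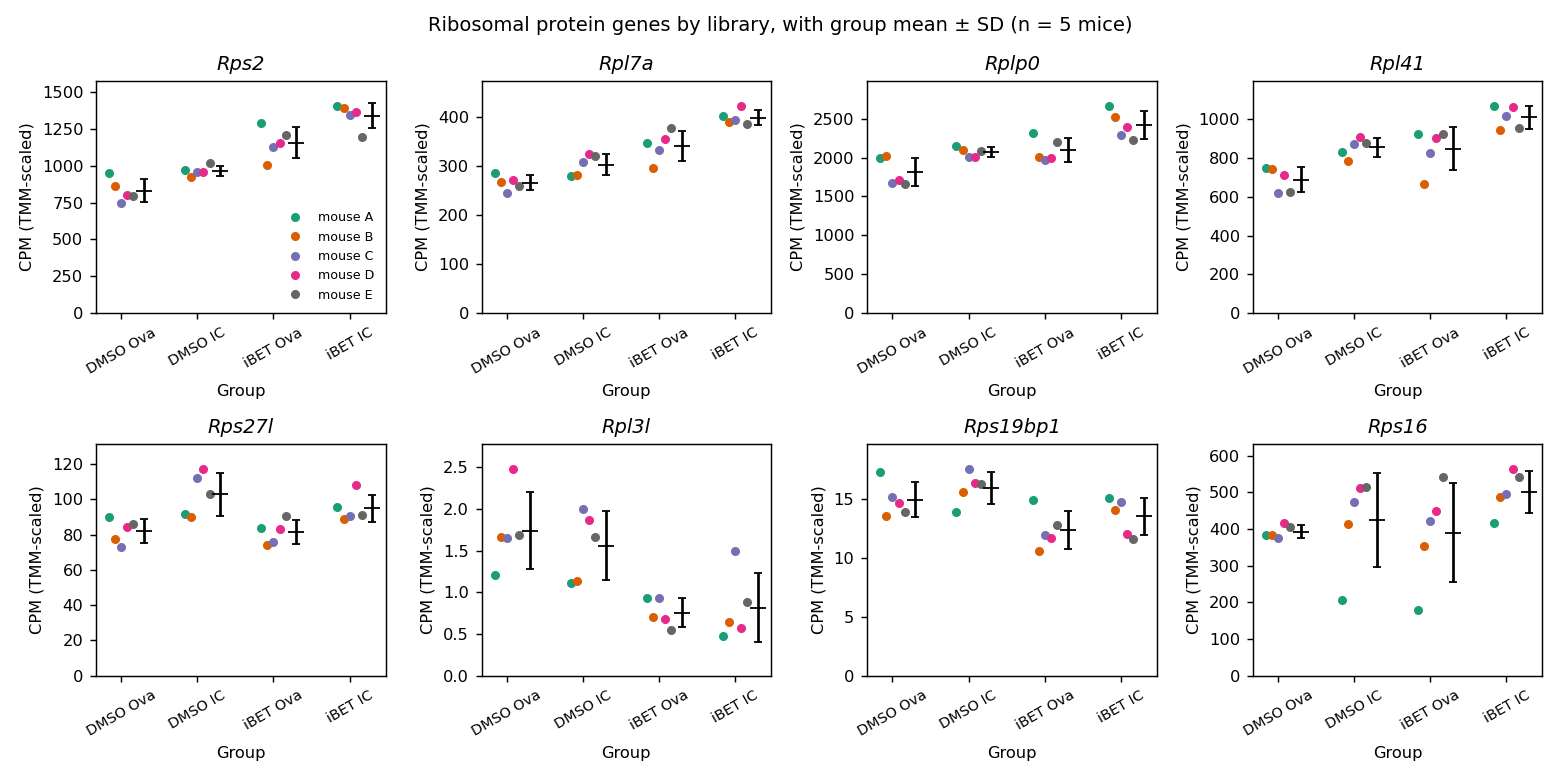
TMM-scaled CPM of 8 rows in each library by group (linear axes from 0), with 1 coloured point per mouse and group mean ± SD in black (n = 5). Rps2 and Rpl7a step up with iBET and again with IC, Rpl3l and Rps19bp1 are lower with iBET, and Rps16 is low in the DMSO IC and iBET Ova libraries of mouse A.

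Whether iBET changed the response to IC was asked with the interaction, the iBET difference in the IC groups less that in the Ova groups. No ribosomal protein row passed it in either direction (edgeR, 0 of 86, and 0 at an unadjusted p under 0.05), against 0.0241% of all genes called higher and 0.0160% lower. DESeq2's Wald test and the edgeR fit with a replicate block for the mouse also called 0. The rows with the smallest p were Rps29 (0.14 ± 0.13, log2), Rpl14 (0.09 ± 0.09) and Rpl6 (0.07 ± 0.07), all with an edgeR adjusted p that rounds to 1 and ranked here by the unadjusted p. The median interaction over the rows was 0.011, and it was 0.191 in mice A and B alone and −0.128 in mice C, D and E. A p that misses the threshold does not show that the response was the same, and the mice differed: the median difference of differences was 0.119 in mouse A, 0.268 in B, −0.0976 in C, 0.0290 in D and −0.230 in E.

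The differences within each mouse varied in size from mouse to mouse. With iBET and Ova the median log2 difference was 0.118 in mouse A, −0.062 in B, 0.148 in C, 0.121 in D and 0.232 in E, with 77, 25, 81, 76 and 78 of the 86 rows higher. With iBET and IC it was 0.228, 0.192, 0.034, 0.163 and 0.001, with 85, 82, 65, 82 and 44 rows higher. Mouse B thus gave no general rise with Ova, and mouse E none with IC. IC in DMSO gave medians of 0.108, 0.066, 0.310, 0.238 and 0.238, with 77, 76, 86, 85 and 80 rows higher. IC in iBET gave 0.218, 0.330, 0.231, 0.268 and −0.002, with 85, 85, 84, 85 and 42 rows higher. In mouse E the rows were thus split about evenly for both comparisons that use its iBET IC library. Over all 5 mice, 22 and 38 rows were higher in every mouse with iBET (Ova and IC), and 66 and 40 with IC (DMSO and iBET). No share of all genes that were higher in every mouse stands beside these counts, so they show nothing particular to the rows.

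**Figure D5:**
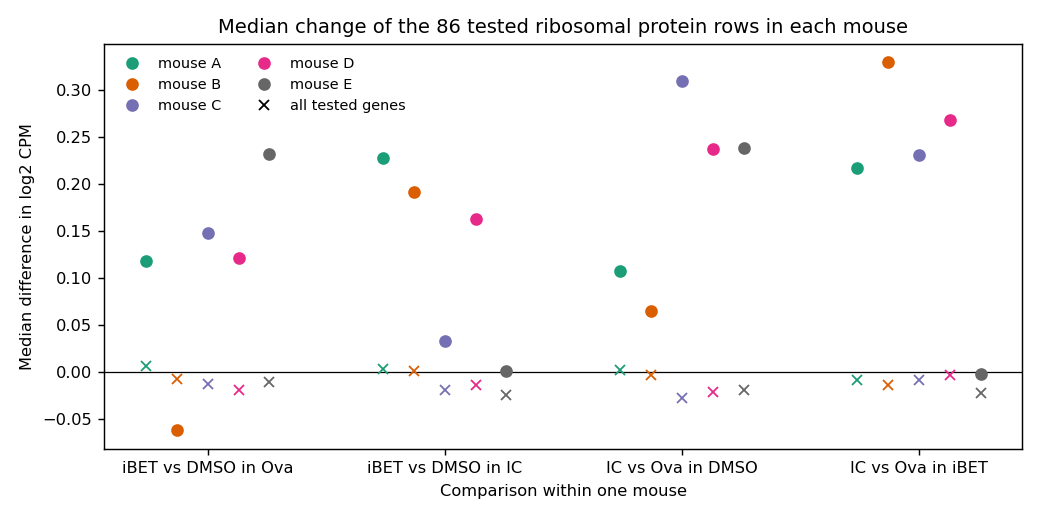
Median difference in log2 CPM over the 86 tested rows within each mouse for the 4 comparisons (filled circles, 1 colour per mouse), with the median over all tested genes as crosses. The circles lie above the crosses in all but the iBET against DMSO comparison with Ova of mouse B, at −0.062, while those of mouse E lie near 0 in both comparisons that use its iBET IC library.

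The number of rows called rested on single mice. For iBET with Ova (25 called, both directions) it was 15, 46, 17, 13 and 12 without mouse A, B, C, D and E, and with IC (25 called) it was 15, 21, 20, 11 and 32. For IC in DMSO (37 called) it was 30, 50, 0, 1 and 8, where the 0 without mouse C stood beside 40 rows at an unadjusted p under 0.05. For IC in iBET (34 called) it was 7, 2, 1, 1 and 44. Of all genes tested, 53.4%, 54.2%, 50% and 51.1% were called for iBET with Ova without mouse A, B, D and E. For iBET with IC it was 53.8% and 49.3% without A and D. For IC it was 9.43%, 11.4% and 14.2% in DMSO without C, D and E. In iBET it was 8.17%, 7.35%, 5.14% and 5.75% without A, B, C and D. For the other fits with a mouse left out no share of all genes is given here, so their counts have no background. The medians stayed above 0 in these 4 comparisons when 1 mouse was left out. Mice A and B taken alone gave 0.023 and 0.225 for iBET with Ova and IC and 0.082 and 0.271 for IC in DMSO and iBET, and mice C, D and E 0.211, 0.098, 0.288 and 0.164. The calls in these sets of mice were 0, 16, 0 and 1 of 86 rows in A and B (edgeR, with 4 and 1 at an unadjusted p under 0.05 where 0 were called), and 59, 16, 72 and 1 of 87 rows in C, D and E. Of all genes tested, 43.9%, 41.9%, 4% and 2.37% were called in A and B (both directions). In C, D and E it was 58.6%, 57.4%, 27.2% and 9.48%.

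The rows also varied together within groups. Over the 82 rows compared, the median correlation of a pair of genes across the 20 libraries, as deviations from the group means, was 0.553 (quartiles 0.306 and 0.732). This is a description over libraries that share mice, depth and scaling. No value for other genes is set beside it, so it is not shown to be particular to these rows. Rps16 (median r with the others 0.0613), Rpl39 (0.0664) and Rps27a (0.126) moved least with the rest. For Rps16 this came with 2 low libraries of mouse A. Rps16 stood at 384, 384, 376, 416 and 406 CPM in the DMSO Ova libraries of mice A to E, and at 206, 414, 474, 513 and 516 CPM in their DMSO IC libraries. Rps16 values with iBET were 180, 354, 423, 449 and 542 CPM in the Ova libraries and 417, 487, 496, 565 and 541 CPM in the IC libraries. The low libraries stood at 206 and 180 CPM, and no comparison of Rps16 passed the test (adjusted p = 0.965, 0.39, 0.791 and 0.345, the last 0.0464 with the mouse as a replicate block).

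Of the 88 rows, 30 hold small nucleolar RNA genes within the bounds of the gene on the same strand, 58 in all, which guide the modification of ribosomal RNA. Whether each lies in an intron was not checked. Among these hosts 10 and 8 of 30 rose with iBET (Ova and IC) and 13 and 14 with IC (DMSO and iBET), against 13, 15, 24 and 20 of the 56 other tested rows. Of all genes tested, 27.7% and 27.1% rose with iBET, and 9.59% and 5.19% with IC. The counts of hosts with iBET lay near these shares and are no result about the hosts. A total RNA library can also count reads of the small RNAs or of unspliced introns, which the deposited gene counts do not separate.

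Genes that share the machinery or the control of ribosomal proteins were counted from lists. Of 18 genes with TOP mRNAs that encode no ribosomal protein, mostly translation factors, 7 rose and 0 fell with iBET and Ova (against 27.7% of all genes tested that rose and 28.9% that fell), and 6 rose and 1 fell with iBET and IC (27.1% and 29.0%). With IC 3 rose in DMSO and 4 in iBET (9.59% and 5.19% of all genes), and 0 fell by edgeR in either, with 7 at an unadjusted p under 0.05 in each. With the mouse as a replicate block 8 rose and 3 fell with iBET and Ova (33.5% and 35.2% of all genes), 7 rose and 2 fell with iBET and IC (32.6% and 35.4%), and 9 and 10 rose with IC (18.3% and 14.2%). Eef1d, a subunit of the exchange factor of elongation, rose by 0.61 ± 0.06 with iBET and Ova (log2; edgeR adjusted p = 2.63e-08). Eef2, the translocation factor, rose by 0.34 ± 0.06 (adjusted p = 1.60e-04), and Npm1, a nucleolar assembly factor, by 0.34 ± 0.07 (adjusted p = 3.87e-04). Hnrnpa1, an RNA-binding protein, fell by 0.62 ± 0.17 with iBET and IC (adjusted p = 0.00523), and with Ova it passed only with the block (−0.41 ± 0.17, SE without the block; blocked adjusted p = 1.11e-04), as did Eif4b and Eif3e, both initiation factors.

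Of 20 genes known to control ribosomal protein genes or TOP mRNAs, 8 rose and 4 fell with iBET and Ova, 7 rose and 6 fell with iBET and IC, and 3 rose and 0 fell with IC in DMSO. Beside the shares of all genes called in each direction given above (27.7% and 28.9%, then 27.1% and 29.0%), the counts with iBET are too near the background to say anything of this list. With IC in DMSO 9.59% of all genes rose and 10.7% fell. With IC in iBET 0 passed by edgeR (5.19% and 6.63% of all genes), with 4 at an unadjusted p under 0.05. With the replicate block 10 rose and 4 fell with iBET and Ova, 8 rose and 6 fell with iBET and IC, 6 rose and 2 fell with IC in DMSO, and 2 rose and 2 fell with IC in iBET. In that fit 33.5% of all genes rose and 35.2% fell with iBET and Ova, and 32.6% and 35.4% with iBET and IC. With IC it was 18.3% and 19.8% in DMSO, and 14.2% and 14.7% in iBET. Gabpa, a factor of the Ets family that binds many promoters of these genes, was lower with iBET, with log2 differences of −0.86 ± 0.07 beside Ova and −0.97 ± 0.07 beside IC (adjusted p = 4.40e-09 and 7.88e-10). Rptor, the mTORC1 subunit that binds substrates, had −0.58 ± 0.15 and −0.69 ± 0.15 (adjusted p = 0.00237 and 5.63e-04), while Mlst8, another subunit of mTORC1, rose by 0.41 ± 0.07 with Ova (adjusted p = 5.88e-05). Myc, which drives ribosome production, was not called in the fit without the mouse in any comparison. With the block, log2 differences of 0.76 ± 0.36 with iBET and Ova, −0.52 ± 0.36 with IC in DMSO and −0.99 ± 0.36 with IC in iBET (SE of the fit without the block) passed (blocked adjusted p = 2.02e-05, 0.00374 and 7.79e-06). Of 5 chaperones dedicated to single ribosomal proteins, 2 rose with iBET and either stimulus, Tsr2, which escorts Rps26 (0.35 ± 0.11 with Ova, adjusted p = 0.0088), and Pdcd2, which escorts Rps2 (0.40 ± 0.07, adjusted p = 7.45e-05). Grwd1, which escorts Rpl3, fell with iBET and IC (−0.43 ± 0.14, adjusted p = 0.0156), and with the block also with Ova (−0.31 ± 0.14, SE without the block; blocked adjusted p = 0.00503). With the block Bccip fell with IC as well (blocked adjusted p = 0.0418), which made 2 rising and 1 falling with Ova and 2 and 2 with IC. With IC 0 of the 5 passed in DMSO or in iBET by edgeR with or without the block, with 2 and 0 at an unadjusted p under 0.05. Beside the shares of all genes given above, 5 genes are too few for these counts to say anything of the list.

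The mitochondrial ribosome is made of a separate set of nuclear-encoded proteins and served as a comparison. Of its 77 tested genes, 10 rose and 28 fell with iBET and Ova, and 11 rose and 28 fell with iBET and IC, with medians of −0.10 and −0.11. The background was 27.7% of all genes rising and 28.9% falling with Ova and 27.1% and 29.0% with IC. The falling share of this set thus lay somewhat above the background, and its rising share lay below it. With the replicate block 14 rose and 33 fell with Ova (33.5% and 35.2% of all genes), and 16 rose and 33 fell with IC (32.6% and 35.4%). With IC, 6 rose and 2 fell in DMSO (9.59% and 10.7% of all genes), and 3 rose and 1 fell in iBET (5.19% and 6.63%). The medians were 0.06 and 0.07. With library size as the only scaling they were −0.05 and −0.04, a scale on which the median over all genes was −0.131 and −0.121 (−0.024 and −0.014 with TMM). With the replicate block 10 rose and 3 fell with IC in DMSO (18.3% and 19.8% of all genes), and 11 rose and 2 fell in iBET (14.2% and 14.7%). No test of the difference between the families was made.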

How the data were processed

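RNA-seq of BMDCs was analysed for 20 libraries, 5 mice in each of 4 groups, made with a SMARTer pico total RNA kit. Per the labels the cells were sorted into lysis buffer, whereas the study's methods describe lysis of the cultured cells and name no sort. The authors deposited raw counts per gene, and a second table of signal values, checked to be the same counts over DESeq2's median-of-ratios factor of the library. The submitters' processing notes name CASAVA, FastQC, Trim Galore, HISAT2 and featureCounts with mm10. The counting annotation, the strand setting and how multi-mapping reads were handled are not given in the sources used here. The study's methods name DESeq2 and sva.

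After filterByExpr and TMM scaling, edgeR 4.0.16 (R 4.3.3) was used for quasi-likelihood tests, with the 4 groups as factor, Benjamini-Hochberg adjustment over 12465 genes and a threshold of 0.05. CPM per kilobase used the exons of transcripts tagged basic in GENCODE M21. Libraries of 1 mouse deviated together from their group means (correlation 0.307 to 0.675 over 30 pairs), and the labels name the mouse, so the fit with the mouse as a replicate block is given beside the counts of calls that it changes. Replicates are separate mice. Errors of log2 fold changes are SEs of the fit without the mouse. Errors of CPM, shares and ratios are SDs between mice, which include counting error.

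The genes and lists were chosen with earlier results of these data known. Rows named are, for each comparison, the 4 largest rises and the 4 largest falls past the threshold with a mean of at least 100 counts, the 3 smallest p of the interaction, the 5 highest and 3 lowest levels per kb, the stalk proteins, Rps6, Rpl5, Rpl11, Rpl41, Rpsa, Rps19bp1 and 8 paralogue pairs. Rps16 and Rpl3l as a falling gene were named after their values were seen, as were the genes named from the lists. Some items that these rules name are not reported here.

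Alternatives were the replicate block, DESeq2 1.42.0 with and without it, DESeq2's size factors, library size only, 3 surrogate variables (sva 3.50.0), no filter, the groups compared only, the deposited signal as log2 with a pseudocount of 1 in limma 3.58.1, pseudogene rows added, each mouse left out, mice A and B only, and mice C, D and E only. Leaving out the rows Rps27rt and Rpl37rt was added after the data were seen. The sets of mice A and B and of mice C, D and E follow the split seen in these same data. The fits were tested on simulated data.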

Additional observations from a re-analysis of the deposited data

Results flagged for a closer look

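Of 72 groups of 5 libraries examined (17 of the genes named in the text and the summed share, in 4 groups), 2 held a library far from the others by Dixon's test, where chance alone gives about 1 in 20. Rplp2, a stalk protein, stood at 496.4 CPM in the DMSO IC library of mouse B, against 539 to 553 CPM in the other mice. The summed share of the ribosomal protein rows was 4.46% in the DMSO Ova library of mouse C, against 4.70% to 4.75% in the other mice. No cause was tested for either. No row passed the interaction, and 0 rows moved one way with iBET in every mouse with Ova and the other way in every mouse with IC.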

How the results depend on the processing

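The medians of the log2 fold changes in the 4 comparisons stayed above 0 under every alternative run, whereas the counts of rows called did not hold. With the mouse as a replicate block, which suits the pairing of libraries by mouse, 44 rows were called for iBET with IC, 74 for IC in DMSO and 77 for IC in iBET. Of all genes tested, 68%, 38.1% and 28.9% were called there (both directions). DESeq2 with this block called 42, 49, 74 and 77 (iBET with Ova, iBET with IC, IC in DMSO, IC in iBET), DESeq2 without it 61 and 52 for IC, and surrogate variables 54, 58, 58 and 61. The shares of all genes called were 67.7%, 66.9%, 37% and 28.8%, then 22.8% and 14.6%, then 69.9%, 67.9%, 32.6% and 24.9%. In these fits the counts with iBET lay near or below the share of all genes and are no result about the rows. Fewer were called with only the libraries of the groups compared (13 for iBET with Ova, 11 and 4 for IC), with no filter (13 and 9 for IC) and with library size only (16, 15, 0 and 0, the zeros beside 6 and 12 at an unadjusted p under 0.05), where the median for IC in DMSO was 0.088. In that order the shares of all genes called were 52.6%, 14.6% and 10.3%, then 11.2% and 6.21%, then 56.3%, 56.2%, 25.5% and 18.8%. Mice A and B alone gave 0, 16, 0 and 1 calls, with a median of 0.082 for IC in DMSO, and mice C, D and E alone 59, 16, 72 and 1. The shares of all genes called in these sets of mice are given above. Leaving out each mouse gave 12 to 46, 11 to 32, 0 to 50 and 1 to 44 calls, with shares of all genes given above for some of these fits only. These smaller sets hold fewer libraries, and the cause of the other changes was not tested. Without Rn45s in the total, the summed shares were 4.91%, 5.23%, 5.24% and 5.63% (DMSO Ova, DMSO IC, iBET Ova, iBET IC). Single genes that changed sign had not passed the test, but for Rps19bp1 with iBET and IC (0.0020 in mice A and B). With iBET and Ova these were Rpl11 (−0.036 in A and B), Rpsa (−0.017 with library size only, −0.00385 in A and B), Rpl36al (0.00079 in C to E), Rpl22 (−0.025 with library size only) and Rps27l (0.086 in C to E, 0.011 with no filter, 5.71e-05 with surrogate variables, and −0.037 to 0.029 with a mouse left out). With iBET and IC they were Rpsa (−0.010) and Rpl22 (−0.00379) with library size only, Rpl22 in C to E (−0.00982) and Rps27l in A and B (0.040). For IC in DMSO they were Rps29 (−0.014) and Rpl3 (−0.028) in A and B, Rpl3 with library size only (−0.031), and Rpl7l1 (−0.090 with library size only, −0.088 in A and B, −0.023 with surrogate variables, and −0.0051 to 0.068 with a mouse left out). For IC in iBET they were Rpl3 (−0.020 with library size only) and Rpl7l1 (−0.090 with library size only, −0.037 in C to E, and −0.021 to 0.065 with a mouse left out). The interaction of Rps29 (−0.12) and Rpl14 (−0.054) turned in C to E. Rows with few counts, such as Rpl3l, are limited by depth.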
